A study of Mus musculus with 16 samples.

Results

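The data cover 41 genes of the cell division cycle in mouse bone marrow-derived macrophages: 21 that copy DNA or make its building blocks, called replication genes here, and 20 that condense, hold and part the chromosomes, called mitotic genes. They were matched by symbol, and all 41 were found among the 54532 gene identifiers of the expression tables. RNA was sequenced from 16 libraries in 4 groups of 4: wild-type FVB/N cells with vehicle (DMSO), wild-type FVB/N cells with dexamethasone, and FVB/N cells labelled Foxo3-/- (knockout) with vehicle or with dexamethasone. Dexamethasone, a drug that activates the glucocorticoid receptor, was given at 100 nM for 24 h. All groups were grown from marrow of femur and tibia for 5 to 7 days with 20% serum and 30% L929 conditioned medium, which supplies macrophage growth factor. The labels give neither the age of the mice nor the design of the knockout allele, and they do not say whether replicates came from separate animals. The p-values therefore cover only the spread among libraries of the same group, which may be technical. In the limma tests below this spread was pooled over the 4 groups.

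The unit was FPKM (reads on a gene, corrected for its exon length and for sequencing depth). Between 16886745 and 20584573 reads per library fell on genes, and 1 FPKM in a gene of 2 kb rested on 32.9 to 39.7 reads. Foxo3 itself read 24.7 ± 1.72 FPKM (SD, n = 4) in wild-type and 23.8 ± 0.635 in knockout-labelled vehicle libraries (exact two-sided permutation test, p = 0.371), and 23.2 ± 1.07 against 24.5 ± 1.44 under dexamethasone (exact p = 0.171). The smallest p this design allows is 0.0286. The value covers all exons of the gene, so it does not check a label that rests on a deleted exon, and the genotype is written as labelled throughout. All 10 macrophage markers reached 1 FPKM, with sums of 10127 to 16109. Libraries differed in Col1a1, a collagen gene of fibroblasts and other stromal cells. It read 127, 124, 6.77 and 174 FPKM in wild-type vehicle libraries 1 to 4 and 356, 159, 286 and 19.1 with dexamethasone. In knockout-labelled libraries it read 4.76, 0.506, 0.395 and 95.8 with vehicle and 1.18, 1.20, 15 and 25.5 with dexamethasone. Wild-type vehicle library 3, wild-type dexamethasone library 4 and knockout-labelled vehicle library 4 stood apart from their groups, and results are given with and without these 3.

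A cell that enters the cycle first loads the MCM2 to MCM7 ring onto origins with CDC6 and CDT1, then fires it with CDC45 and the GINS complex, while PCNA clamps the polymerases and ribonucleotide reductase supplies nucleotides. Genes of this phase are classical targets of E2F factors. Mitotic genes come later, under the DREAM and MYB-MuvB complexes, which bind the cell cycle homology region (CHR) and act with CCAAT-bound NF-Y. Macrophages grown in macrophage growth factor keep dividing in culture. Which cells in these libraries held the RNA of either set was not tested.

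Promoters of 6 members are printed, the 3 in each set with the smallest adjusted p among those that hold E2F or CHR letters. RefSeq (GRCm38.p6) gave a promoter window around a start site, all of one length, for 33 members: 17 replication and 16 mitotic. Exact letters were searched on both strands. For E2F they were TTCCCGC or else TTGGCGC or else TTCGCGC. For CHR they were TTTGAA or else TTCGAA, which reads alike on both strands, and for NF-Y they were CCAAT. The stretches run from 170 bases before to 30 after the start, 5′ to 3′ on the gene's strand, with every match in capitals. They lie at chr6:88898751-88898950 (minus strand) for Mcm2, chr8:75109339-75109538 (plus strand) for Mcm5, chr17:56303167-56303366 (plus strand) for Uhrf1, chr5:30666716-30666915 (plus strand) for Cenpa, chr2:172370541-172370740 (minus strand) for Aurka and chr11:99024160-99024359 (minus strand) for Top2a.
Mcm2: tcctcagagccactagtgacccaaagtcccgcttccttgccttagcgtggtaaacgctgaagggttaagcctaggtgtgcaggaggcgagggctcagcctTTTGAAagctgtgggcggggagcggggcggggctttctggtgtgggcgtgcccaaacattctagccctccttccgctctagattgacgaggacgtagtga
Mcm5: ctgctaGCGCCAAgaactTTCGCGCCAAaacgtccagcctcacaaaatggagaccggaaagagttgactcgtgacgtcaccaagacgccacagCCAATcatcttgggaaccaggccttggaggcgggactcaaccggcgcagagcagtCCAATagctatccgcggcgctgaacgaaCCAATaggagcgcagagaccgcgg
Uhrf1: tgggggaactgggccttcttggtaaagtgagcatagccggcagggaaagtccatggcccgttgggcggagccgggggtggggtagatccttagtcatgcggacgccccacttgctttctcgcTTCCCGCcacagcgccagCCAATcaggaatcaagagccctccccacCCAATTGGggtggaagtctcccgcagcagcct
Cenpa: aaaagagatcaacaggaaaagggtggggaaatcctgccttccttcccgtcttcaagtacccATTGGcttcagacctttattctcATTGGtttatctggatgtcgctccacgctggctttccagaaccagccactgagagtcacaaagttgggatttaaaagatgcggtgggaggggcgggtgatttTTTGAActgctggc
Aurka: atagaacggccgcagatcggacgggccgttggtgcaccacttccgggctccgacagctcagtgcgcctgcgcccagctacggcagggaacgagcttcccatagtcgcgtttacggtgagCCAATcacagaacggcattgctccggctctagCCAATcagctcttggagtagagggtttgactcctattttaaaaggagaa
Top2a: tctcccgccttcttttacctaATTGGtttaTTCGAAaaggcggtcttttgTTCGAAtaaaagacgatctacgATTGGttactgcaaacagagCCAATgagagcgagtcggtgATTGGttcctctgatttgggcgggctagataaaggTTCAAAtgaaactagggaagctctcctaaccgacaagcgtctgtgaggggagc
Mcm5 held 3 E2F matches, of which 2 overlap, Uhrf1 held 1 in this stretch, and Mcm2 held a CHR match but no E2F letters. Cenpa and Aurka each carried a CHR match after the start, Aurka's from base 33 to 38 and so beyond the printed stretch, while Top2a had several before it. CCAAT, read as ATTGG on the other strand, was in all 6 windows, in Mcm2 just upstream of the printed stretch.

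E2F letters were found in 10 of the 17 replication promoters (58.8%) and in 3 of the 16 mitotic ones (18.8%), against 9.2% of the 27025 genes of the RefSeq table. The 10 were Mcm3, Mcm5, Mcm6, Mcm7, Cdc6, Cdt1, Rrm1, Uhrf1, Pola1 and Prim1, and the 3 were Mki67, Ccnb1 and Cdk1. CHR letters were found in 12 of 16 mitotic promoters (75.0%) and 3 of 17 replication promoters (17.6%), against 21.7% of all genes. CCAAT stood in 14 of 16 (87.5%) and 12 of 17 (70.6%), against 41.1%. Within the 100 bases before the start alone, the E2F share of replication genes was 23.5% against 3.7% of all genes, and the CHR share of mitotic genes was 31.2% against 7.2%. A match of letters is a description of these windows, not a bound site.

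Dexamethasone lowered most replication genes in both genotypes. In wild type 17 of the 20 that could be tested fell and none rose, where 30.1% of all 11654 tested genes changed, 18.2% lower and 11.9% higher (limma on log2(FPKM + 1), Benjamini-Hochberg adjusted p under 0.05). In knockout-labelled cells 17 of 20 fell and none rose, against 24.1% of all genes lower and 15% higher, 39.1% in all. In both genotypes 15 fell (14.7% of all genes did): the MCM ring subunits Mcm2, Mcm3, Mcm5, Mcm6 and Mcm7, the loading and firing factors Cdc6, Cdc45, Gins1 and Gins2, Pcna, the nucleotide enzymes Rrm2, Tyms and Tk1, the epigenetic factor Uhrf1 and the G1/S cyclin Ccne1. The median difference of the tested replication genes was -0.66 in wild type and -0.65 in knockout-labelled cells on the log2 scale, beside -0.02 and -0.05 for all genes. Less RNA per cell and fewer cells in the cycle cannot be told apart in such bulk libraries. Testing needed 1 FPKM in 4 libraries. Ccne2 did not reach this. Cdc6 and Tyms reached it only with the help of their vehicle libraries, as 2 and 3 dexamethasone libraries held 1 FPKM, which favours a difference. With a minimum of 0.1 FPKM all 21 were tested, and 16 fell in wild type and 17 in knockout-labelled cells. Of all genes 11.9% and 16.2% fell at that minimum. The balance of all calls depended on scaling: 39.5% of the genes called in wild type and 38.4% in knockout-labelled cells were higher, against 48.3% and 48.5% with median-ratio factors, 47.2% and 51.1% with quantile normalization and 56.1% and 65.6% with voom on recovered reads, which moved the median of all genes in knockout-labelled cells from -0.05 to 0.12. Under voom 14 replication genes still fell in each genotype and none rose, where 13.6% and 14.8% of all genes fell.

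**Figure D1:**
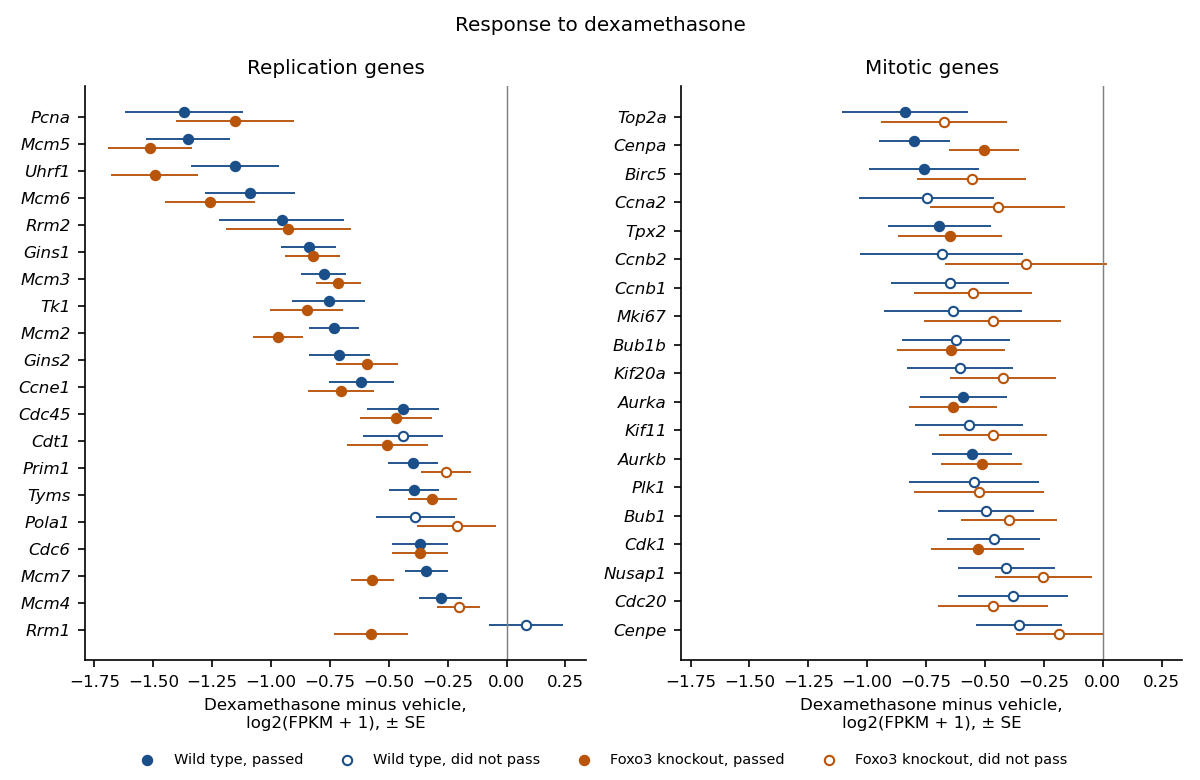
Difference between dexamethasone and vehicle on the log2(FPKM + 1) scale (x axis, bars are standard errors) for the 20 replication genes (left) and 19 mitotic genes (right) that were tested, in wild type (blue) and knockout-labelled cells (orange). Filled points passed the adjusted p of 0.05: 17 replication and 6 mitotic genes in each genotype, all lower with dexamethasone.

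Mcm2, a subunit of the helicase ring, read 6.69, 6.04, 6.97 and 4.81 FPKM in wild-type vehicle libraries 1 to 4 and 3.22, 2.94, 3.70 and 3.18 with dexamethasone. The knockout-labelled libraries held 6.18, 8.36, 6.46 and 7.5 and, with dexamethasone, 2.71, 3.20, 3.42 and 3.20. Every vehicle library lay above every dexamethasone library of its genotype. Mcm2 fell by 0.73 (SE 0.11) on the log2 scale in wild type (limma adjusted p = 0.000128) and by 0.97 (SE 0.11) in knockout-labelled cells (limma adjusted p = 6.91e-06), means 1.88-fold and 2.27-fold lower. Mcm5, another ring subunit, read 11.7, 9.75, 13.7 and 7.15 FPKM in wild-type vehicle libraries and 2.72, 2.95, 3.54 and 4.76 with dexamethasone. Its values were 12.9, 17.9, 13.8 and 14.1 in knockout-labelled vehicle libraries and 3.46, 4.98, 5.13 and 4.35 with dexamethasone. The groups again did not overlap, and wild-type library 4 was the lowest with vehicle and the highest with dexamethasone. The log2 differences of Mcm5, -1.35 ± 0.18 (SE) in wild type and -1.51 ± 0.18 in knockout-labelled cells, had limma adjusted p of 5.66e-05 and 1.38e-05, and the means differed 3.03-fold and 3.27-fold.

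Mcm3 also belongs to the ring. It read 14.7, 13.7, 17.6 and 12.3 FPKM in the wild-type vehicle libraries against 7.97, 6.98, 8.59 and 8.66 with dexamethasone. In knockout-labelled libraries it read 19.8, 24.3, 21.3 and 22.5 with vehicle and 12.6, 13.9, 13.0 and 12.5 with dexamethasone. No groups of this gene overlapped except wild-type vehicle with knockout-labelled dexamethasone. Its log2 differences were -0.78 ± 0.10 (SE, limma adjusted p = 3.13e-05) and -0.71 ± 0.10 (limma adjusted p = 4.26e-05). Of the other ring genes, Mcm6 showed log2 differences of -1.09 and -1.26, and Mcm7 of -0.34 and -0.57, wild type first, and all 4 passed. Mcm4 was the least moved subunit. It fell by 0.28 in wild type (limma adjusted p = 0.0322), a call lost without vehicle library 3 (-0.17, adjusted p = 0.076), without vehicle library 1 and without dexamethasone library 2 or 3, and its -0.20 in knockout-labelled cells did not pass (limma adjusted p = 0.0928) unless wild-type vehicle library 3 was left out (adjusted p = 0.0189).

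Gins1, a subunit of the GINS complex that activates the loaded ring, was among the lower members. Wild-type vehicle libraries held 2.75, 2.03, 3.17 and 2.2 FPKM and dexamethasone libraries 1.04, 0.675, 0.886 and 1.29. Knockout-labelled libraries held 2.57, 2.31, 2.96 and 2.59 and 1.13, 1.17, 0.831 and 1.03. Vehicle and dexamethasone did not overlap in either genotype. The log2 differences of Gins1 were -0.84 ± 0.12 (SE, limma adjusted p = 8.97e-05) and -0.82 ± 0.12 (limma adjusted p = 7.27e-05), and with a pseudocount of 0.1 FPKM, which compresses low values less, -1.31 and -1.25. Its partner Gins2 differed by -0.71 and -0.59, both past the test, but 67.3% of its exon bases are shared with Gse1 on the opposite strand. Without a known strand setting the reads of both cannot be told apart there. Gse1 read 3.51 FPKM with vehicle and 4.11 with dexamethasone in wild type, and 3.72 and 3.42 in knockout-labelled libraries.

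Among loading factors, Cdc6 fell by 0.37 on the log2 scale in wild type (limma adjusted p = 0.0286) and by 0.37 in knockout-labelled cells (limma adjusted p = 0.0224). Cdc45, which joins the ring when it fires, fell by 0.44 and 0.47 (limma adjusted p = 0.0413 and 0.0245). These calls lay near the threshold and were lost in some fits that left out 1 library. Libraries of the other genotype enter them only through the shared spread. The wild-type call of Cdc6 was lost without vehicle library 1 or 3 or dexamethasone library 1 or 3 and that of Cdc45 without 8 of the 16, among them vehicle library 1 or 3 and dexamethasone library 1, 2 or 4 of wild type, and vehicle library 1 and dexamethasone library 2 or 4 of knockout-labelled cells. In knockout-labelled cells both were lost without vehicle library 2 or dexamethasone library 1 or 4, Cdc45 also without dexamethasone library 2 and Cdc6 without vehicle library 3 (adjusted p up to 0.0752 and 0.0697). Without wild-type vehicle library 3, Cdc45 stood at -0.27 and Cdc6 at -0.28 in wild type, with adjusted p of 0.111 and 0.0862. Cdt1, the partner of CDC6 in loading, passed in knockout-labelled cells (-0.51 ± 0.17, SE, limma adjusted p = 0.0289) but not in wild type (-0.44, limma adjusted p = 0.0645). In wild type its dexamethasone libraries read 10.8, 11.6, 10.9 and 18.3 FPKM, and it passed without vehicle library 4, without knockout-labelled vehicle library 4, and without dexamethasone library 4, the highest, at -0.61 (adjusted p = 0.00641). The knockout-labelled call was lost without dexamethasone library 1 or 4 or vehicle library 1, 2 or 3, with adjusted p up to 0.1.

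Pcna, the sliding clamp, was the most abundant member, with 35.0% to 57.7% of the summed FPKM of the 21 replication genes. Its wild-type vehicle libraries read 124, 108, 215 and 109 FPKM and its dexamethasone libraries 43.5, 45.8, 49.9 and 67.0. Knockout-labelled libraries read 177, 127, 121 and 76.3 with vehicle and 45.0, 48.4, 62.4 and 59.9 with dexamethasone. The groups did not overlap within either genotype, and wild-type vehicle library 3 was far above the rest of its group. The log2 differences were -1.37 ± 0.25 (SE, limma adjusted p = 0.000866) and -1.15 ± 0.25 (limma adjusted p = 0.0022). Pcna levels are uncertain because a processed pseudogene on chromosome 19, Pcna-ps2, matches it at 99.2% over 781 bases. Pcna-ps2 was listed at 1.66, 69.1, 64.4 and 46.7 FPKM in knockout-labelled vehicle libraries 1 to 4 and at 26.3, 25.1, 16.5 and 0.881 with dexamethasone, but at 0.385 to 2.16 in all 8 wild-type libraries. It was thus high in 6 of 8 knockout-labelled libraries and in no wild-type library. With the reads of both added, which was chosen after seeing the data, Pcna differed by -1.37 and -1.19 (limma adjusted p = 0.00039 and 0.000827).

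**Figure D2:**
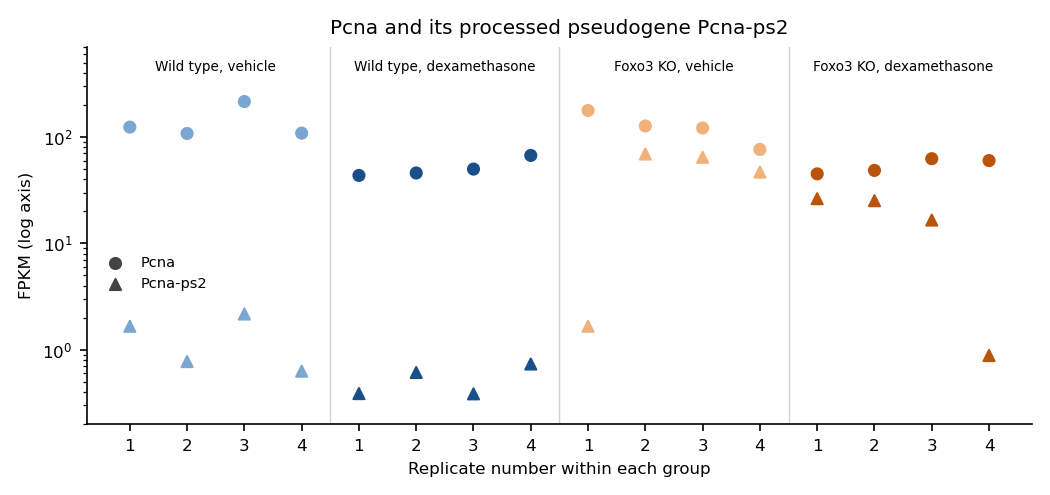
FPKM (log axis) of Pcna (circles) and of its processed pseudogene Pcna-ps2 (triangles) in each library, by group and replicate number. Pcna was lower with dexamethasone in both genotypes, while Pcna-ps2 stood at 16.5 to 69.1 FPKM in 6 knockout-labelled libraries and at no more than 2.16 in the other 10.

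Uhrf1, which binds hemimethylated DNA at the fork and recruits the maintenance methyltransferase, read 6.91, 5.67, 8.78 and 4.66 FPKM in wild-type vehicle libraries and 1.81, 2.08, 2.27 and 3.22 with dexamethasone. In knockout-labelled libraries it held 7.59, 10.9, 8.30 and 8.80 with vehicle and 1.54, 2.76, 3.18 and 2.72 with dexamethasone. Neither genotype showed overlap between treatments. The log2 differences were -1.15 ± 0.19 (SE, limma adjusted p = 0.000314) and -1.49 ± 0.19 (limma adjusted p = 2.18e-05), with means 2.77-fold and 3.49-fold lower. The cyclin Ccne1, which drives entry into S phase, fell by 0.62 and 0.70 (limma adjusted p = 0.00392 and 0.00111). Its relative Ccne2 was too low to test, between 0.226 and 1.33 FPKM.

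Of the enzymes for DNA precursors, thymidine kinase Tk1 fell by 0.76 in wild type and 0.85 in knockout-labelled cells (limma adjusted p = 0.00195 and 0.000587). Rrm2, the regulated subunit of ribonucleotide reductase, fell by 0.95 and 0.93 (limma adjusted p = 0.0138 and 0.0124). Thymidylate synthase, Tyms, differed by -0.39 and -0.31 (limma adjusted p = 0.0117 and 0.0284), and its call in knockout-labelled cells was lost without dexamethasone library 1 or 3 or vehicle library 2 or 4 (adjusted p up to 0.0907). Rrm1 encodes the large subunit of the reductase. Part of its exon sequence matches other genes, so its reads may include theirs. Rrm1 was the one replication gene with an estimate above 0 in wild type. It read 6.59, 6.84, 7.22 and 5.61 FPKM in wild-type vehicle libraries and 8.46, 7.40, 8.84 and 4.21 with dexamethasone, so that only dexamethasone library 4 was below the vehicle range. In knockout-labelled cells 6.23, 7.77, 6.97 and 7.5 with vehicle stood against 3.82, 4.63, 4.63 and 4.67 with dexamethasone, with no overlap. Rrm1 fell in knockout-labelled cells (-0.58 ± 0.16, SE, limma adjusted p = 0.0092) and did not pass in wild type (0.08 ± 0.16, limma adjusted p = 0.731). Without wild-type dexamethasone library 4 it passed in the upward direction there (0.29, adjusted p = 0.0309), without library 3 it stood at -0.02, and between the only wild-type libraries under 50 FPKM of Col1a1, 1 for each treatment, the difference was -0.66, with no spread of its own.

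The subunits of the priming polymerase moved less. Prim1, the primase, fell by 0.40 in wild type (limma adjusted p = 0.0108), and its -0.26 in knockout-labelled cells did not pass (limma adjusted p = 0.0685) but did without wild-type vehicle library 3 or dexamethasone library 1 (adjusted p = 0.0492 and 0.046). Pola1, the catalytic subunit, did not pass in either (-0.39 and -0.21, limma adjusted p = 0.0974 and 0.346), save in wild type without vehicle library 1 (-0.50, adjusted p = 0.0486). When each of the 16 libraries was left out in turn, 14 of the 17 wild-type calls and 13 of the 17 knockout-labelled calls were made every time. Under the 13 other alternatives, 8 of the 17 and 12 of the 17 were made in every one. Of the wild-type calls that held with each library left out, Rrm2 and Prim1 were lost with the wild-type groups fitted alone (adjusted p = 0.0605 and 0.0592), Tyms without the 3 libraries apart in Col1a1 (0.0626) and Mcm7 under voom (0.0501), and Mcm7, Gins2 and Ccne1 in the comparison of 1 wild-type library with 1 under 50 FPKM of Col1a1. Of the knockout-labelled ones Rrm1 was lost under voom (0.0606). Without the 3 libraries apart in Col1a1, 15 replication genes fell and 1 (Rrm1) rose in wild type, and 19 fell in knockout-labelled cells. Of all genes 20.4% and 28.8% fell there.

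Fewer mitotic genes passed. In each genotype 6 of the 19 tested fell and none rose, against 18.2% of all genes in wild type and 24.1% in knockout-labelled cells. In wild type these were Cenpa, Birc5, Aurkb, Aurka, Tpx2 and Top2a, and in knockout-labelled cells Aurka, Cenpa, Aurkb, Tpx2, Bub1b and Cdk1. The estimates of all 19 were below 0 in both genotypes, with medians of -0.61 and -0.51, beside -0.66 and -0.65 for the replication genes. The spread was larger: the median SD within groups was 0.347 on the log2 scale for mitotic and 0.212 for replication genes, beside 0.153 for all genes tested. Cenpf did not reach the minimum for testing. Cenpe and Bub1 reached it only with the help of their vehicle libraries, as 2 dexamethasone libraries of each held 1 FPKM. With all 20 tested, at a minimum of 0.1 FPKM, 6 fell in wild type and 5 in knockout-labelled cells, where 11.9% and 16.2% of all genes did.

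These counts turned on single libraries. In wild type 16 of 19 mitotic genes fell without dexamethasone library 4 and 12 without vehicle library 4. Only 1 fell without vehicle library 3, dexamethasone library 1 or dexamethasone library 2, 2 without dexamethasone library 3 and 3 without vehicle library 1. In these fits 14.7% to 19.3% of all genes fell. In knockout-labelled cells none passed in limma without dexamethasone library 1 (5 at an unadjusted p under 0.05) and 1 without vehicle library 2. There were 3 without dexamethasone library 3 or 4 or without vehicle library 1 or 3, and 9 without vehicle library 4. Without wild-type vehicle library 3, which enters through the shared spread, 10 passed. In these fits 19.5% to 25.3% of all genes fell. Without the 3 libraries apart in Col1a1, 14 fell in wild type and 16 in knockout-labelled cells, where 20.4% and 28.8% of all genes did. With log2(Col1a1 FPKM + 1) as a covariate, 11 fell in each, where 20.6% and 27.9% of all genes did.

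Cenpa, the histone H3 variant that marks centromeres, read 10.7, 8.80, 8.68 and 8.49 FPKM in wild-type vehicle libraries and 3.73, 4.86, 4.30 and 6.78 with dexamethasone. Knockout-labelled libraries held 5.07, 5.49, 3.90 and 4.49 and 2.19, 3.41, 2.98 and 3.65. Vehicle lay above dexamethasone without overlap in both genotypes, narrowly so in the knockout-labelled cells. The log2 differences of Cenpa were -0.80 ± 0.15 (SE, limma adjusted p = 0.00102) and -0.51 ± 0.15 (limma adjusted p = 0.0148), and the latter call was lost without dexamethasone library 1 (-0.39, adjusted p = 0.0545). Cenpa was the mitotic member whose wild-type call was made in each of the 16 fits that left out 1 library. Between the single wild-type libraries under 50 FPKM of Col1a1 the difference of Cenpa was -0.32 and did not pass, so that no mitotic call was made under every alternative.

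The chromosomal passenger complex corrects attachments of the spindle, and Aurkb is its kinase. Aurkb read 4.67, 4.09, 5.82 and 3.48 FPKM in wild-type vehicle libraries, 1.96, 2.33, 2.99 and 3.82 with dexamethasone. Its knockout-labelled libraries held 4.61, 7.52, 5.16 and 5.68 and 2.83, 4.27, 4.08 and 3.61. In wild type dexamethasone library 4 exceeded vehicle library 4, and the knockout-labelled groups did not overlap. Its differences of -0.56 ± 0.17 and -0.51 ± 0.17 (log2, SE) had limma adjusted p of 0.0242 and 0.0274. The wild-type call was lost without vehicle library 1 or 3 or dexamethasone library 1 or 2 (adjusted p up to 0.0787), the other without vehicle library 2 or dexamethasone library 1 or 4 (up to 0.096). Birc5, or survivin, is a partner of AURKB in that complex. It held 3.53, 2.97, 5.43 and 2.37 FPKM in wild-type vehicle libraries and 1.18, 1.16, 1.42 and 3.17 with dexamethasone, where library 4 was above vehicle libraries 2 and 4. Its knockout-labelled values were 3.89, 5.66, 4.50 and 2.72 with vehicle and 2.06, 2.87, 2.64 and 2.31 with dexamethasone, and they overlapped through vehicle library 4. Birc5 fell in wild type (-0.76 ± 0.23, SE, limma adjusted p = 0.0232), a call lost without vehicle library 3 or dexamethasone library 1, 2 or 3 (adjusted p up to 0.0742). It did not pass in knockout-labelled cells (-0.56, limma adjusted p = 0.072), but did without vehicle library 4 (adjusted p = 0.0296), and without wild-type vehicle library 3 or dexamethasone library 4 (adjusted p = 0.047 and 0.0299).

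Aurka, the kinase of centrosomes and spindle poles, read 4.45, 3.52, 5.17 and 2.59 FPKM in wild-type vehicle libraries and 1.66, 2.08, 2.14 and 3.12 with dexamethasone. Its knockout-labelled libraries read 5.00, 6.80, 4.32 and 3.82 and 2.05, 3.03, 3.11 and 3.06. The wild-type groups overlapped through both libraries numbered 4, and the knockout-labelled groups did not overlap. Aurka differed by -0.59 ± 0.19 (log2, SE, limma adjusted p = 0.0264) and -0.64 ± 0.19 (limma adjusted p = 0.0139). Tpx2 binds and activates AURKA on spindle microtubules. It read 4.54, 3.68, 6.99 and 2.99 FPKM with vehicle and 1.69, 2.23, 2.26 and 3.27 with dexamethasone in wild type. In knockout-labelled libraries 5.41, 8.0, 5.52 and 3.70 with vehicle stood beside 2.38, 3.69, 3.08 and 3.52 with dexamethasone. The lowest vehicle value there was level with the highest dexamethasone value. The log2 differences of Tpx2, -0.69 ± 0.22 and -0.65 ± 0.22 (SE), passed with limma adjusted p of 0.0275 and 0.0297. The wild-type calls of Aurka and Tpx2 were each lost without vehicle library 1 or 3 or dexamethasone library 1, 2 or 3 (adjusted p up to 0.0851 for Tpx2 and 0.0816 for Aurka). In knockout-labelled cells Aurka lost its call without vehicle library 2 or dexamethasone library 1 (up to 0.0523), and Tpx2 without vehicle library 1, 2 or 3 or dexamethasone library 1 or 3 (up to 0.104).

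Top2a, the topoisomerase that untangles sister chromatids, read 4.95, 4.64, 10.4 and 2.78 FPKM in wild-type vehicle libraries and 1.71, 2.36, 2.25 and 3.74 with dexamethasone. The knockout-labelled values were 6.25, 8.47, 7.46 and 5.29 and 2.79, 4.69, 4.11 and 4.15. Wild-type vehicle library 3 was the highest of all, and the wild-type groups overlapped through library 4 of each. Top2a fell in wild type (-0.84 ± 0.27, SE, limma adjusted p = 0.0281), but not without vehicle library 3 (-0.55, adjusted p = 0.0724) or without dexamethasone library 1, 2 or 3. In knockout-labelled cells its groups did not overlap and -0.67 ± 0.27 did not pass (limma adjusted p = 0.0596), but did without vehicle library 4 or without wild-type vehicle library 3 or 4 or dexamethasone library 4 (adjusted p from 0.0136 to 0.0497). Mki67, whose protein is the usual stain for dividing cells, read 2.77, 3.32, 7.49 and 2.06 FPKM in wild-type vehicle libraries and 1.01, 2.21, 1.41 and 3.68 with dexamethasone. The knockout-labelled values of Mki67 were 5.00, 5.69, 6.20 and 3.95 with vehicle and 2.45, 4.22, 3.46 and 3.88 with dexamethasone. Treatments overlapped in both genotypes. Its differences of -0.64 ± 0.29 and -0.47 ± 0.29 (log2, SE) did not pass (limma adjusted p = 0.119 and 0.228). Without wild-type dexamethasone library 4, Mki67 passed in wild type (-0.86, adjusted p = 0.0327).

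Of the checkpoint genes, Bub1b, which holds the cell until all chromosomes are attached, fell in knockout-labelled cells (-0.65 on the log2 scale, limma adjusted p = 0.0364), a call lost without any one of 7 single libraries of that genotype (all but vehicle library 4, adjusted p up to 0.121), and stood at -0.62 in wild type (limma adjusted p = 0.0525), where it passed without library 4 of either treatment or knockout-labelled vehicle library 2 (adjusted p from 0.00813 to 0.0445). Bub1 stood at -0.50 and -0.40 and passed in neither, except without wild-type dexamethasone library 4 in wild type (adjusted p = 0.0441) and without wild-type vehicle library 3 in knockout-labelled cells (adjusted p = 0.0345). Cdk1, the kinase that starts mitosis, fell in knockout-labelled cells (-0.53, limma adjusted p = 0.0446), which was lost without 11 of the 16 single libraries (adjusted p up to 0.137). Its cyclins Ccna2, Ccnb1 and Ccnb2 stood at -0.75, -0.65 and -0.68 in wild type and at -0.44, -0.55 and -0.33 in knockout-labelled cells, and none passed in either. Nor did Plk1 and Cdc20, a mitotic kinase and the activator of the anaphase-promoting complex, the motors Kif11 and Kif20a, or the spindle and kinetochore genes Nusap1 and Cenpe, whose estimates lay between -0.61 and -0.18 over both genotypes. In wild type, leaving out dexamethasone library 4 let Ccna2, Ccnb1, Ccnb2, Cenpe, Plk1, Kif11 and Kif20a pass (adjusted p from 0.0197 for Ccnb1 to 0.0405 for Cenpe), and leaving out vehicle library 4 did so for Cdk1, Ccna2, Ccnb1, Kif11 and Kif20a (adjusted p from 0.0178 for Cdk1 to 0.0345 for Ccna2). Kif20a also passed in wild type without knockout-labelled vehicle library 2 or 4 and in knockout-labelled cells without vehicle library 4 (adjusted p = 0.0451), and Kif11 in knockout-labelled cells without wild-type vehicle library 3 (adjusted p = 0.0388). Kif20a shares 29.3% of its exon bases with Cdc23 on the opposite strand, which read 3.82, 3.90, 3.57 and 3.58 FPKM on average in wild-type vehicle, wild-type dexamethasone, knockout-labelled vehicle and knockout-labelled dexamethasone libraries. Ccna2 shares 12.5% with Exosc9 in the same way.

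Treatments did not overlap, with every dexamethasone library lower, in 14 replication genes and in 1 mitotic gene (Cenpa) in wild type, where 16.5% of all genes showed this. In knockout-labelled cells this held for 19 replication and 8 mitotic genes, against 23.9% of all genes. The 8 were Top2a, Aurka, Aurkb, Cdk1, Cdc20, Cenpa, Bub1b and Tpx2. Summed over the 20 replication genes other than Pcna, wild-type vehicle libraries 1 to 4 held 128, 116, 158 and 94.1 FPKM and dexamethasone libraries 68.1, 67.3, 74.0 and 81.8. Knockout-labelled libraries held 139, 179, 148 and 142 with vehicle and 72.4, 88.3, 88.2 and 82.5 with dexamethasone. The treatments were apart in both genotypes, with vehicle 1.70 and 1.83 times dexamethasone on average. The 20 mitotic genes summed to 81.4, 68.9, 124 and 50.5 FPKM in wild-type vehicle libraries and 32.3, 37.7, 42.0 and 70.0 with dexamethasone. In knockout-labelled libraries the mitotic sums were 88.7, 125, 91.5 and 69.2 and 45.0, 73.5, 61.0 and 61.3. Here the treatments overlapped in each genotype, through wild-type dexamethasone library 4 and vehicle libraries 2 and 4, and through knockout-labelled vehicle library 4 and dexamethasone library 2. These sums are descriptions and were not tested.

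**Figure D3:**
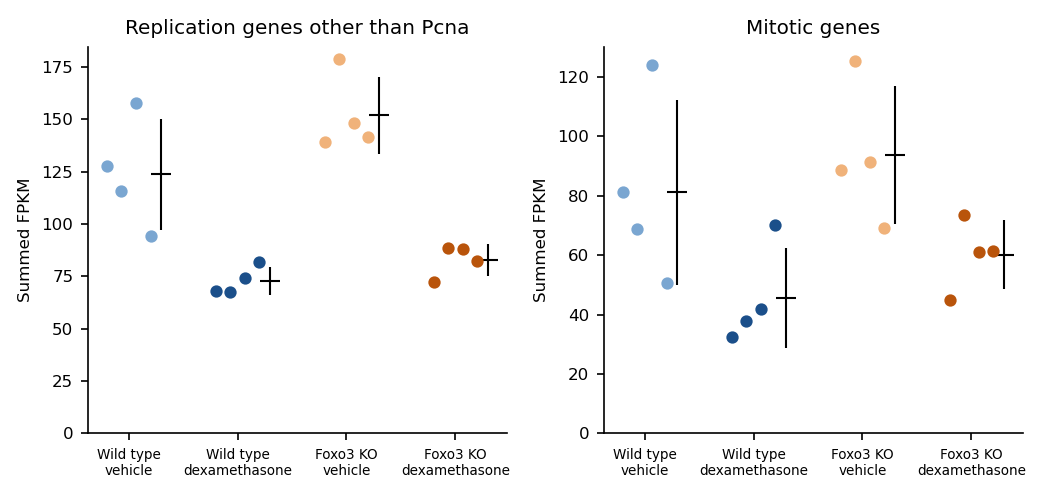
Summed FPKM of the replication genes other than Pcna (left) and of the mitotic genes (right) in each library (points, replicates 1 to 4 from left to right within a group), with the group mean and SD beside them. Replication sums of vehicle and dexamethasone libraries are apart in both genotypes, 94.1 to 158 against 67.3 to 81.8 FPKM in wild type, and mitotic sums overlap, 50.5 to 124 against 32.3 to 70.0.

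Between genotypes few members differed. With vehicle 1 replication gene was higher in knockout-labelled cells and 1 mitotic gene was lower, where 3.37% of all genes were higher and 1.3% lower, 4.68% in all. Under dexamethasone 2 replication genes were higher and 1 lower, and 1 mitotic gene was lower, where 14.3% of all genes were higher and 12.4% lower, 26.7% in all. The higher genes were Mcm3 in both treatments and Cdc6 under dexamethasone. In wild type Cdc6 reached 1 FPKM only in vehicle libraries 1 and 3 (1.02 and 1.35). It was thus tested through its knockout-labelled libraries, which favours a call and a lack of overlap in that direction. Mcm3 averaged 14.6 ± 2.24 FPKM (SD, n = 4) in wild-type and 22.0 ± 1.93 in knockout-labelled vehicle libraries, a log2 difference of 0.57 ± 0.10 (SE, limma adjusted p = 0.00314), and 8.05 ± 0.778 against 13.0 ± 0.631 under dexamethasone (0.63 ± 0.10, limma adjusted p = 0.000619). Its genotypes did not overlap in either treatment, nor did those of Cdc6, nor those of Mcm4 under dexamethasone, with 7.66% and 16.3% of all genes higher without overlap with vehicle and under dexamethasone. Cdc6 stood at 0.40 ± 0.12 under dexamethasone (SE, limma adjusted p = 0.0247), a call lost without dexamethasone library 1 or 3 of wild type or 2 or 3 of knockout-labelled cells (adjusted p up to 0.0791), and at 0.40 with vehicle (limma adjusted p = 0.0686).

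Cenpa was the mitotic gene that was lower in knockout-labelled cells: 4.74 ± 0.693 against 9.16 ± 1.01 FPKM (SD, n = 4) with vehicle, a log2 difference of -0.83 ± 0.15 (SE, limma adjusted p = 0.00518), and 3.06 ± 0.641 against 4.92 ± 1.32 under dexamethasone (-0.53 ± 0.15, limma adjusted p = 0.0199). The genotypes did not overlap, with 2.97% and 10.2% of all genes lower without overlap. Under dexamethasone the call was lost without knockout-labelled library 1 (-0.42, adjusted p = 0.0671). The direction of Cenpa was opposite to that of the other 18 tested mitotic genes with vehicle, whose estimates were above 0 and did not pass. Rrm1 was lower in knockout-labelled cells under dexamethasone (-0.56 ± 0.16, SE, limma adjusted p = 0.0203), which did not hold without knockout-labelled library 1 or wild-type library 1 or 3 (adjusted p up to 0.0713), and with libraries under 50 FPKM of Col1a1, only 1 of them wild type, it stood at 0.06.

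The genotype counts moved with the libraries that were apart in Col1a1. Without those 3, wild-type libraries all had at least 124 FPKM of Col1a1 and knockout-labelled libraries at most 25.5. Then 14 mitotic genes were higher and Cenpa lower in each treatment, and 7 replication genes were higher with vehicle. Under dexamethasone 6 replication genes were then higher and 1 lower. Calls over all genes, in both directions, rose as well, to 34% with vehicle (2448 of 11654 higher) and 44.3% under dexamethasone (2967 higher). A rise in calls was thus not particular to the members. Without wild-type vehicle library 3 alone, 4 mitotic genes were higher and 1 lower with vehicle, and 5 replication genes were higher. In that fit 13.9% of all genes were called (1032 of 11654 higher). Leaving out knockout-labelled vehicle library 4 left 2 replication genes higher with vehicle. Under dexamethasone 1 replication gene was higher and none lower without wild-type dexamethasone library 1 or 3, and 4 were higher and 1 lower without wild-type vehicle library 3. Under dexamethasone, 6 mitotic genes were higher and 1 lower without wild-type dexamethasone library 4, and 3 higher and 1 lower without wild-type vehicle library 3. In limma 0 were called without knockout-labelled dexamethasone library 1 (7 at an unadjusted p under 0.05). Of all genes 34.9%, 31.6% and 14.7% were called in these fits, in that order. Of the 9 libraries under 50 FPKM of Col1a1 only 1 per treatment was wild type. A genotype difference among them has no spread of its own in wild type, so no count of members is drawn from that fit. Col1a1 and the genotype label went together in these libraries, and the part of either in the genotype differences cannot be told apart.

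No member passed the test of a difference in response between the genotypes. The test of the difference between both responses in limma called 0 replication and 0 mitotic genes, where it called 0.129% of all genes, 0.0601% higher and 0.0686% lower. At an unadjusted p under 0.05 it held 1 replication gene, Rrm1, and no mitotic gene, and voom on the recovered reads also called 0 of both. Rrm1 differed by -0.66 ± 0.22 between the responses (log2, SE, unadjusted p = 0.00967, limma adjusted p = 0.266). It passed without wild-type dexamethasone library 4 (adjusted p = 0.00383). Calls made in a single genotype, such as Birc5 or Bub1b, are therefore not shown to differ between genotypes.

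Within groups, mitotic genes ran against Col1a1. In a model with the 4 group means and log2(Col1a1 FPKM + 1), 15 of 19 mitotic genes had a slope below 0 past the threshold and none above, where 25.2% of all 11653 genes tested had a called slope, 13.5% below 0 and 11.7% above. Of 20 replication genes 2 did, Cdt1 and Pola1. The median slope was -0.11 for mitotic and -0.04 for replication genes, in log2 units per log2 unit of Col1a1, beside -0.01 for all genes. The firmest were Birc5 (-0.13 ± 0.03, SE, limma adjusted p = 0.00306), Kif11 (-0.13 ± 0.03, limma adjusted p = 0.00322) and Nusap1 (-0.11 ± 0.02, limma adjusted p = 0.00432), and the steepest was the cyclin Ccnb2 (-0.17 ± 0.04, limma adjusted p = 0.0123). Mki67 stood at -0.14 ± 0.04 (limma adjusted p = 0.018) and Top2a at -0.12 ± 0.04 (limma adjusted p = 0.0252). Aurka, Aurkb, Cdc20 and Cenpa did not pass, and Cenpa was nearest to 0 (-0.02 ± 0.03, limma adjusted p = 0.715). Among replication genes the slopes were -0.09 ± 0.02 for Cdt1 (limma adjusted p = 0.00797) and -0.08 ± 0.02 for Pola1 (limma adjusted p = 0.0332), and Mcm3 stood at -0.03 ± 0.02 (limma adjusted p = 0.234).

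**Figure D4:**
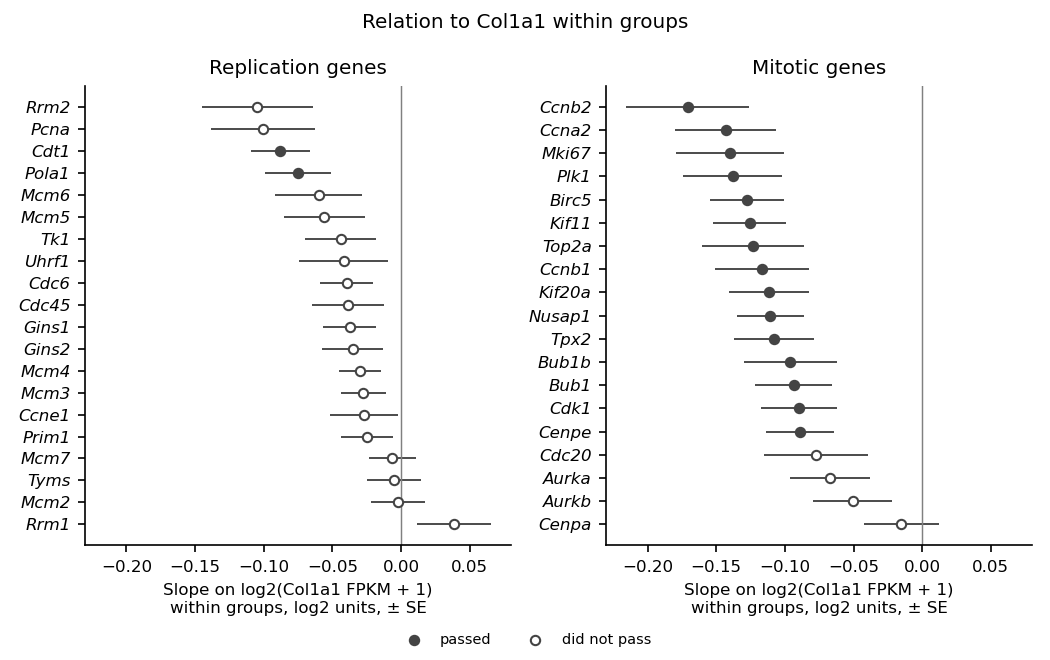
Slope of each tested member on log2(Col1a1 FPKM + 1) within the 4 groups (x axis, bars are standard errors), for replication genes (left) and mitotic genes (right). Filled points passed the adjusted p of 0.05: 15 of 19 mitotic and 2 of 20 replication genes, all with slopes below 0.

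This relation rested on the 3 libraries apart. Without them limma called 0 mitotic slopes (1 at an unadjusted p under 0.05), the median mitotic slope was -0.02, and 1 replication slope passed, above 0, where 338 genes passed in all and 0.129% of genes had a slope below 0. Without wild-type vehicle library 3 alone 4 mitotic slopes passed, without wild-type dexamethasone library 4 alone 7, and without knockout-labelled vehicle library 4 alone 9. Of all genes 14.9%, 18.9% and 17% had a called slope in these fits, in that order. For replication genes 5 slopes passed without knockout-labelled dexamethasone library 1, where 25.6% of all genes had a called slope. Only 1 passed when wild-type vehicle library 3 or 4, wild-type dexamethasone library 1 or 4 or knockout-labelled vehicle library 3 was left out. In those fits 14.9% to 23% of all genes had a called slope. The slopes of Mki67, Top2a and Ccnb2 were among those lost without wild-type vehicle library 3 (limma adjusted p = 0.118, 0.157 and 0.067), and those of Birc5, Kif11 and Nusap1 passed each time 1 library was left out. Since the libraries formed a cluster with high and one with low Col1a1 that went with the genotype label, no pooled correlation is given.

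**Figure D5:**
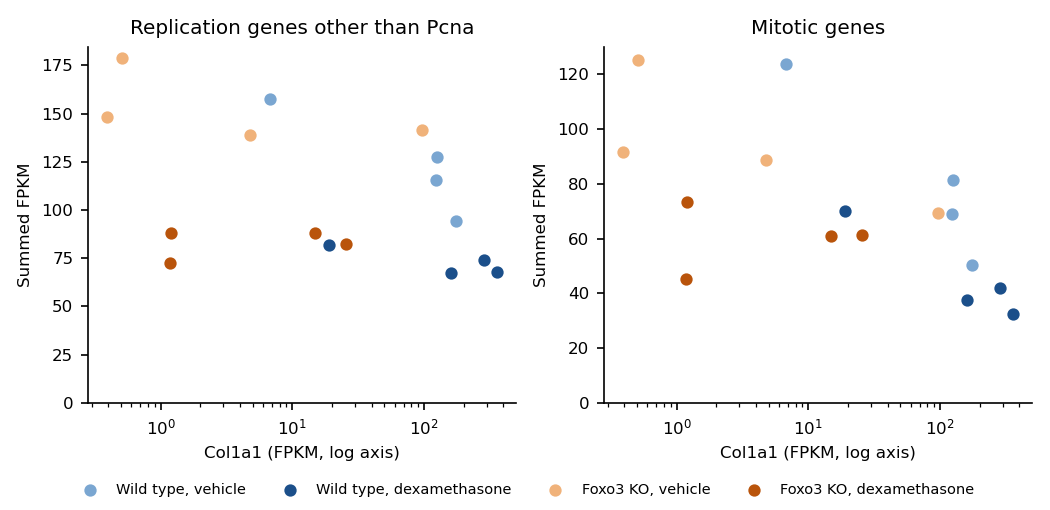
Summed FPKM of replication genes other than Pcna (left) and of mitotic genes (right) against Col1a1 (FPKM, log axis) in each of the 16 libraries, coloured by group. Within wild type the library with the least Col1a1 has the highest mitotic sum of each treatment, 124 and 70.0 FPKM, and among knockout-labelled vehicle libraries the one with 95.8 FPKM of Col1a1 has the lowest, 69.2. Knockout-labelled dexamethasone libraries go the other way: the one with the least Col1a1, 1.18 FPKM, has the lowest mitotic sum, 45.0.

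The libraries apart were extreme for nearly every mitotic gene. Wild-type vehicle library 3, low in Col1a1, was the highest of its group in 19 of 20 mitotic and 20 of 21 replication genes, as it was for 41.6% of all genes. Wild-type dexamethasone library 4, also low in Col1a1, was the highest in 20 of 20 and 14 of 21, against 42.6% of all genes. Knockout-labelled vehicle library 4, high in Col1a1, was the lowest in 18 of 20 and 9 of 21, against 36% of all genes. Libraries that did not stand apart in Col1a1 could be as extreme. Knockout-labelled dexamethasone library 1, with 1.18 FPKM of Col1a1, was the lowest in 19 of 20 mitotic and 14 of 21 replication genes (29.9% of all genes), and wild-type vehicle library 4 was the lowest in 19 of 20 and 15 of 21 (18.2%). Knockout-labelled vehicle library 2 was the highest in 15 of 20 and 16 of 21 (35.2%), and knockout-labelled dexamethasone library 2 in 17 of 20 and 7 of 21 (21%). The mitotic sum per replication sum without Pcna was 0.856 in wild-type dexamethasone library 4 and 0.475, 0.560 and 0.568 in the others of that group.

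Col1a1 stood for a wider set. Of 15 stromal markers 14 reached 1 FPKM in some library, Thy1 did not, and none was at 0 throughout. Their sum ranged over 45.1 to 767 FPKM in wild-type vehicle, 91.8 to 1501 in wild-type dexamethasone, 5.66 to 587 in knockout-labelled vehicle and 9.69 to 128 in knockout-labelled dexamethasone libraries. With the mean log2 level of these markers as a covariate, 12 mitotic genes fell with dexamethasone in wild type and 13 in knockout-labelled cells, where 21.7% and 28.7% of all genes did. Their part in the values of the cycle genes was not tested. Markers of some other marrow cells were near the floor: 8 of 9 erythroid markers stayed under 1 FPKM, with 4 of them at 0 in every library, as did 8 of 10 markers of neutrophils and their precursors and 6 of 7 of stem and progenitor cells. The erythroid genes under 1 FPKM included Hba-a1, Hbb-bt and Gata1, and those of neutrophil precursors Mpo and Elane. Erythroid sums were 1.38 to 1.94 FPKM in wild-type vehicle, 1.19 to 1.55 in wild-type dexamethasone, 0.642 to 2.57 in knockout-labelled vehicle and 0.507 to 1.53 in knockout-labelled dexamethasone libraries, and neutrophil sums, in the same order, 2.10 to 5.01, 1.77 to 3.67, 0.964 to 4.11 and 0.742 to 2.04. Stem and progenitor sums were 0.638 to 3.25, 0.385 to 2.53, 0.410 to 2.39 and 0.276 to 0.765 FPKM. The remaining lists held genes above 1 FPKM, and most of their sums were lower with dexamethasone, as the cycle genes were. Dendritic cell markers (5 of 7 under 1 FPKM) summed to 213 to 261, 77.5 to 118, 271 to 430.1 and 135 to 169 FPKM in the same order of groups, with no overlap between treatments in either genotype. This sum rested on Itgax and Bst2, while Flt3, Zbtb46, Xcr1, Clec9a and Siglech stayed under 1 FPKM. It is therefore no measure of dendritic cells. Lymphoid markers (7 of 9 under 1 FPKM, all but Cd79b and Ighm) summed to 22.1 to 62.5, 11.9 to 24.0, 32.7 to 84.6 and 13.2 to 16.7 FPKM, without overlap in knockout-labelled cells. Sums of mast cell and megakaryocyte markers (6 of 7 under 1 FPKM, all but Pf4) were 30.3 to 50.9, 26.9 to 34.4, 65.2 to 118 and 36.9 to 72.7 FPKM. They rested on that single gene and are no measure of those cells. Sums of endothelial markers (2 of 6 under 1 FPKM) were 10.5 to 14.9, 4.83 to 17.2, 7.72 to 11.9 and 2.42 to 3.96. The part of the cells these lists mark in the values of the cycle genes was not tested.

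Regulators of the cycle were called lower and higher. Of 39 tested regulators (cyclins D, CDKs, CDK inhibitors, pocket proteins, E2F and MuvB subunits among them), 10 fell and 4 rose in wild type, and 16 fell and 5 rose in knockout-labelled cells. Of all genes 18.2% fell and 11.9% rose in wild type, and 24.1% fell and 15% rose in knockout-labelled cells, so the shares of regulators that rose were no larger than those of all genes. In both genotypes 9 fell (14.7% of all genes did): Ccnd1, Cdk6, Cdkn1c, E2f2, E2f8, Foxm1, Max, Mybl2 and Rbl1. The median was -0.08 in wild type and -0.21 in knockout-labelled cells, beside -0.02 and -0.05 for all genes. Cdkn1b and Wee1 rose in both. Cdkn1b, which encodes a CDK inhibitor, read 10.6, 10.5, 9.83 and 9.35 FPKM in wild-type vehicle libraries and 16.7, 16.8, 15.3 and 18.0 with dexamethasone. In knockout-labelled libraries it read 6.86, 6.55, 7.5 and 8.96 and 12.1, 11.3, 11.5 and 10.6. Dexamethasone libraries were above vehicle without overlap in each genotype, and knockout-labelled libraries were below wild type in each treatment. The log2 differences of Cdkn1b with dexamethasone were 0.68 ± 0.08 (SE, limma adjusted p = 2.35e-05) and 0.56 ± 0.08 (limma adjusted p = 8.79e-05), and between genotypes -0.39 ± 0.08 with vehicle (limma adjusted p = 0.0114) and -0.51 ± 0.08 under dexamethasone (limma adjusted p = 0.000759).

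Wee1, the kinase that holds CDK1 inactive, read 5.79, 4.58, 7.16 and 4.55 FPKM in wild-type vehicle libraries and 11.5, 9.58, 9.55 and 15.2 with dexamethasone. Knockout-labelled libraries held 6.65, 6.80, 6.15 and 4.84 and 11.5, 12.1, 13.7 and 12.1. It was higher in every dexamethasone library, with log2 differences of 0.93 ± 0.15 (SE, limma adjusted p = 0.0003) and 0.92 ± 0.15 (limma adjusted p = 0.000233). Cyclin D1, Ccnd1, which links growth factors to the cycle, read 30.7, 25.8, 22.8 and 20.0 FPKM with vehicle and 10.7, 12.1, 9.63 and 5.40 with dexamethasone in wild type. In knockout-labelled libraries it read 33.6, 25.5, 23.5 and 29.8 and 3.78, 4.11, 11.4 and 13.4. No dexamethasone library reached the vehicle range, and Ccnd1 fell by 1.34 and 1.83 on the log2 scale (limma adjusted p = 0.00644 and 0.000506). Its kinase partner Cdk6 fell by 0.55 and 0.51 (limma adjusted p = 0.000232 and 0.000268). The CDK inhibitor Cdkn1c fell as well, by 1.25 and 1.72 (limma adjusted p = 0.00727 and 0.000552). Foxm1 and Mybl2, activators of mitotic genes, fell by 0.50 and 0.55 in wild type (limma adjusted p = 0.0257 and 0.0154) and by 0.74 and 0.66 in knockout-labelled cells (limma adjusted p = 0.00185 and 0.00394). The wild-type calls of Foxm1, E2f2 and Max were lost without 4, 5 and 6 of the single libraries, with adjusted p up to 0.0801, 0.102 and 0.0955.

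Within groups 9 of the 39 regulators had a called slope on Col1a1 below 0 and 6 above, where 13.5% and 11.7% of all genes did, and 29 of the 39 estimates were negative. The steepest below 0 were those of Gmnn, which encodes the CDT1 inhibitor geminin (-0.10 ± 0.02, SE, limma adjusted p = 0.00127), and of the INK4 gene Cdkn2d (-0.09 ± 0.02, limma adjusted p = 0.0117). The upward slopes were steeper, at 0.44 ± 0.03 for cyclin D2, Ccnd2 (SE, limma adjusted p = 1.63e-07), 0.63 ± 0.04 and 0.50 ± 0.05 for the INK4 locus genes Cdkn2a and Cdkn2b (limma adjusted p = 7.96e-08 and 5.48e-06), and 0.21 ± 0.04 for Myc (limma adjusted p = 0.000619). Cdkn2a read 23.0, 21.1, 1.68 and 20.2 FPKM in wild-type vehicle libraries 1 to 4 and 3.12, 0.824, 0.737 and 15.8 in knockout-labelled vehicle libraries. It was low in wild-type library 3 and high in knockout-labelled library 4, as Col1a1 was. Without the 3 libraries apart these 4 slopes were smaller and still passed: 0.31 for Ccnd2 (limma adjusted p = 0.000334), 0.53 for Cdkn2a (limma adjusted p = 0.00016), 0.30 for Cdkn2b (limma adjusted p = 0.00664) and 0.20 for Myc (limma adjusted p = 0.0172).

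Further genes of both phases fell as well. Of 46 tested other replication genes (origin recognition, polymerases, clamp loader, chromatin assembly), 20 fell and 1 rose with dexamethasone in wild type, and 21 fell and 2 rose in knockout-labelled cells, with medians of -0.25 and -0.21. Of all genes 18.2% and 24.1% fell, with medians of -0.02 and -0.05. In both genotypes 17 fell, where 14.7% of all genes did. The firmest were Dnmt1, the maintenance methyltransferase (-0.68 in wild type and -0.91 in knockout-labelled cells, limma adjusted p = 8.9e-05 and 4.48e-06), and Rfc2 of the clamp loader (-0.44 and -0.48, limma adjusted p = 0.00063 and 0.000225). Rfc3 followed in wild type (-0.58, limma adjusted p = 0.000331) and Chaf1a, of the chromatin assembly factor, in knockout-labelled cells (-0.54, limma adjusted p = 0.000263). Of 40 tested other mitotic genes 19 fell in wild type and 17 in knockout-labelled cells, none rose, and 11 fell in both, with medians of -0.47 and -0.40 beside the same shares and medians of all genes. They included Incenp, the scaffold of the passenger complex (-0.34 and -0.61, limma adjusted p = 0.00825 and 8.49e-05), and the kinase gene Melk in wild type (-0.66, limma adjusted p = 0.00579), as well as Cdca3, an adaptor in the turnover of WEE1 (-0.83, limma adjusted p = 0.0107). Cks1b, a CDK subunit, and Bub3 led in knockout-labelled cells (-0.89 and -0.28, limma adjusted p = 0.000294 and 0.000299).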

How the data were processed

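RNA-seq was done on 16 libraries, 4 per group. Files held FPKM per Ensembl gene, made by the authors and deposited 1 file per library. Per the submitters' processing notes, TopHat2 2.0.12, Bowtie2 2.2.3, HTSeq 0.6.1 and DESeq2 were used with builds GRCm38 and mm10. The sources used here do not give the role of each or the strand setting. Gene names and exon lengths came from the GENCODE M21 annotation of GRCm38, which held 54495 of the 54532 identifiers. FPKM times exon length gave whole reads, within 0.05 of a whole number, for 96.2% to 96.6% of values, and these reads gave the depth.

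Members and gene lists were chosen with earlier results of these data known. The 11654 genes that reached 1 FPKM in 4 or more of 16 libraries were fitted with limma 3.58.1 (R 4.3.3) on log2(FPKM + 1) over the 4 group means, with an intensity trend. A fold change on that scale understates the change of low genes. Differences were tested two-sided, with Benjamini-Hochberg adjustment over all genes tested and a threshold of 0.05. A further model added log2(Col1a1 FPKM + 1). The procedure was tested on simulated data with 200 changed genes. Every library was printed for members among the 4 smallest adjusted p of their list in either dexamethasone comparison, and for Mki67, Pcna and Top2a. Of other lists, regulators were named freely and the others by their 3 smallest adjusted p. Near copies were sought with BLAST 2.17.0. The 13 alternatives beside leaving out each of the 16 libraries covered pseudocount, filter, scaling, library weights, a replicate block, covariates, choice of libraries and voom on recovered reads. Adding Pcna-ps2 to Pcna was chosen after seeing the data.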

Additional observations from a re-analysis of the deposited data

Results flagged for a closer look

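In 16 of the 172 groups of 4 libraries tested, 1 library lay further from the others than Dixon's 95% critical value allows, and chance does this in about 1 of 20 groups. Wild-type dexamethasone library 4 was the high value for Cdt1 (18.3 FPKM), Birc5 (3.17) and Ccna2 (2.80), and wild-type vehicle library 3 for Pcna (215) and Bub1 (2.25). Knockout-labelled vehicle library 4 was the low value for Bub1 (1.12) and Kif11 (1.71). Knockout-labelled dexamethasone library 1 was low for Rrm1 (3.82), Tk1 (1.58), Aurka (2.05) and Cenpf (0.385). The others were single: Mcm7 in wild-type dexamethasone library 2 (6.68), Cenpa in wild-type vehicle library 1 (10.7), Ccne1 in knockout-labelled vehicle library 2 (4.44), Pola1 in knockout-labelled vehicle library 3 (2.08) and Ccne2 in knockout-labelled dexamethasone library 2 (0.418). Of these, 7 lay in the 3 libraries that stood apart in Col1a1.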

How the results depend on the processing

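The count of replication genes that fell with dexamethasone, 17 in each genotype, stayed within 1.5 times under all 13 alternatives, and between 14 and 18 in wild type and 13 and 19 in knockout-labelled cells when 1 library was left out. Mitotic counts moved. The 6 in wild type became 10 with a pseudocount of 0.1 FPKM, 1 without a filter, 18 with library weights and 1 with the 2 groups alone. The count became 11 with Col1a1 and 12 with the stromal mean as covariate, and 14 without the 3 libraries apart. Under 50 FPKM of Col1a1 wild type has 1 library for each treatment and borrows its spread from the others, so no wild-type count is given. The 6 in knockout-labelled cells became 2 without a filter, with quantile normalization and with voom, 13 with weights, with the 2 groups alone and with the stromal mean, 11 with Col1a1, 16 without the 3 libraries and 14 under 50 FPKM. Leaving out 1 library gave 1 to 16 and 0 to 10. The share of all genes that fell was 18.2% in wild type and 24.1% in knockout-labelled cells. It became 23.3% and 32% with weights, 6.6% and 9.18% without a filter and 13.5% and 24.8% with the 2 groups alone. With a pseudocount of 0.1 FPKM it was 18.4% and 24.1%. With Col1a1 as covariate it was 20.6% and 27.9%, and with the stromal mean 21.7% and 28.7%. Without the 3 libraries it was 20.4% and 28.8%. In knockout-labelled cells it was 16.9% with quantile normalization, 14.8% with voom and 27.8% under 50 FPKM of Col1a1.

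Between genotypes with vehicle, the replication count of 1 became 7 with weights and 7 without the 3 libraries. The mitotic count of 1 became 11 and 15, mostly higher, so that the direction turned. Calls over all genes rose too, from 4.68% to 41.5% with weights and 34% without the 3 libraries. Under dexamethasone the replication count of 3 became 9 with weights, 1 with either covariate and 7 without the 3 libraries. The mitotic count of 1 became 18, 0 and 15 in these, with the direction turned for 18 and 15. It became 2 with a pseudocount of 0.1 FPKM, quantile normalization or voom, and 3, turned, with the 2 groups alone. Of all genes 26.7% were called in the main fit, 54.8% with weights and 44.3% without the 3 libraries. With Col1a1 or the stromal mean as covariate 7.41% and 8.29% were called. Leaving out 1 library gave 1 to 5 for both sets with vehicle, and 1 to 5 and 0 to 7 under dexamethasone. The interaction count of 0 replication genes became 1 with weights and without the 3 libraries, and 0 to 1 with 1 library left out. The interaction count of mitotic genes stayed at 0 in all of them. Over all genes the interaction called 0.129% in the main fit, 11.9% with weights and 6.22% without the 3 libraries. The slope counts, 2 and 15, became 1 (above 0) and 0 without the 3 libraries, and 1 to 5 and 4 to 17 with 1 library left out. Single genes that turned sign were Rrm1, with libraries under 50 FPKM of Col1a1, at -0.66 in wild type (1 library against 1), 0.059 between genotypes under dexamethasone and 0.10 for the interaction, and at -0.017 in wild type without dexamethasone library 3 (0.29 without library 4), and the Bub1 slope without the 3 libraries (0.00094). Dexamethasone over vehicle for the summed replication genes in wild type, here with Pcna included, was 0.474 and ranged from 0.440 to 0.551 with 1 library left out. E2F matches fell from 58.8% to 23.5% of replication and CHR matches from 75.0% to 31.2% of mitotic promoters in the shorter window. The cause of these changes was not tested, except that the shorter window holds fewer bases.

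With the replicate number as a block, mitotic counts with dexamethasone were 2 in wild type and 3 in knockout-labelled cells, where 14.9% and 20.8% of all genes fell. Slope counts were 0 for replication and 5 for mitotic genes, where 13.9% of all genes had a called slope. The block moved no other count by over 1.5 times. Deviations of same-numbered libraries correlated at 0.54, 0.21, -0.68 and -0.45 in wild type and -0.06, 0.39, -0.35 and 0.45 in knockout-labelled cells, so the numbers were not taken to pair the libraries. With 4 libraries a group and 32.9 to 39.7 reads per FPKM in a gene of 2 kb, low members such as Ccne2 and Cenpf could not be tested at the minimum used. Reads of Gins2, Kif20a, Ccna2, Pcna and Mcm7, which shares 12.6% of its exon bases, may include those of an overlapping gene or a copy. The same may hold for Rrm1, which matches several other genes. Of these Nom1 (3.48 to 4.31 FPKM) matches at 93.0% over 612 bases, and the others read at most 0.282 FPKM.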
